A study of Homo sapiens with 4 samples.

Results

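The response of AGS cells to estradiol was read from 1 control library and 1 estradiol library, as the difference between them in every gene that was measured. AGS is an epithelial line from a human gastric adenocarcinoma. The genes described are those with a mean of 10 or more counts over both libraries, which were 15605 of the 58336 genes in the deposited table. Of these, 12246 were protein coding, 2009 long noncoding and 1070 pseudogenes. The study also grew HGC-27, an undifferentiated gastric carcinoma line, and each line gave 1 untreated library and 1 library after 10 nM estradiol for 1 day, so that the series holds 4 libraries. All 4 carry the genotype label WT, and the labels do not say whether the untreated cells received the hormone's solvent. With 1 library a side there is no replicate, so no test of estradiol in AGS was possible and every statement on estradiol is about these libraries alone.

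Estradiol is the main oestrogen. It enters cells and binds the nuclear receptors ESR1 and ESR2, which then act on genes directly at oestrogen response elements or through other transcription factors, and it also binds the membrane receptor GPER1, which acts through kinases and second messengers. In breast cancer cells that carry ESR1, the hormone is known for raising PGR, GREB1 and TFF1. The stomach epithelium is not a classical oestrogen target, and gastric cancer lines differ in which receptors they express.

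The deposited counts summed to 26306803 in the control and 28062811 in the estradiol library, and the genes described held 99.9% of them in each. Transcripts encoded by the mitochondrial genome took 7.94% and 7.82%. The line label was borne out by its markers: 9 epithelial markers such as EPCAM, KRT8 and KRT19 summed to 6107 and 6429 CPM (counts scaled to a common library size, control and estradiol), with none at 0. The 7 mesenchymal markers summed to 17.0 and 15.8 CPM, with SPARC and COL1A2 at 0 in both libraries. Leukocyte markers summed to 1.94 and 1.86 CPM and fibroblast and endothelial markers to 0.531 and 0.535 CPM. CDH1, the junction protein E-cadherin, had 320 and 348 counts.

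Each gene is given below by its counts in the control and the estradiol library, in that order, and by the log2 ratio of estradiol over control after scaling to library size. The brackets hold a 95% counting interval, which covers the sampling of reads and no variation between cultures. The ratios were small. Their median size was 0.110 on the log2 scale over all 15605 genes, 0.0755 over the 10917 genes with a mean count of 100 or more and 0.0558 over the 5803 with 1000 or more. The interval lay above 0 for 1958 genes (12.5%) and below 0 for 2132 (13.7%), 26.2% in all. At a mean count of 100 or more these shares were 14.2%, 15.6% and 29.8%, and at 1000 or more 17.8%, 16.8% and 34.6%. The AGS list counts below are to be read beside these shares. A gene was counted as past the fold when the larger value was 25% or more above the smaller (0.322 on the log2 scale), its interval excluded 0 and its mean count was 100 or more. Of 10917 genes, 202 (1.85%) were past the fold on the higher side and 297 (2.72%) on the lower side, 4.57% in all. At 1.5-fold there were 36 (0.33%) and 41 (0.376%), 0.705% in all, and at 2-fold 5 on each side (0.0458% each, 0.0916% in all). Most had low counts: 375 of the 499 had mean counts of 100 to 363, and 24 had 1000 or more.

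**Figure D1:**
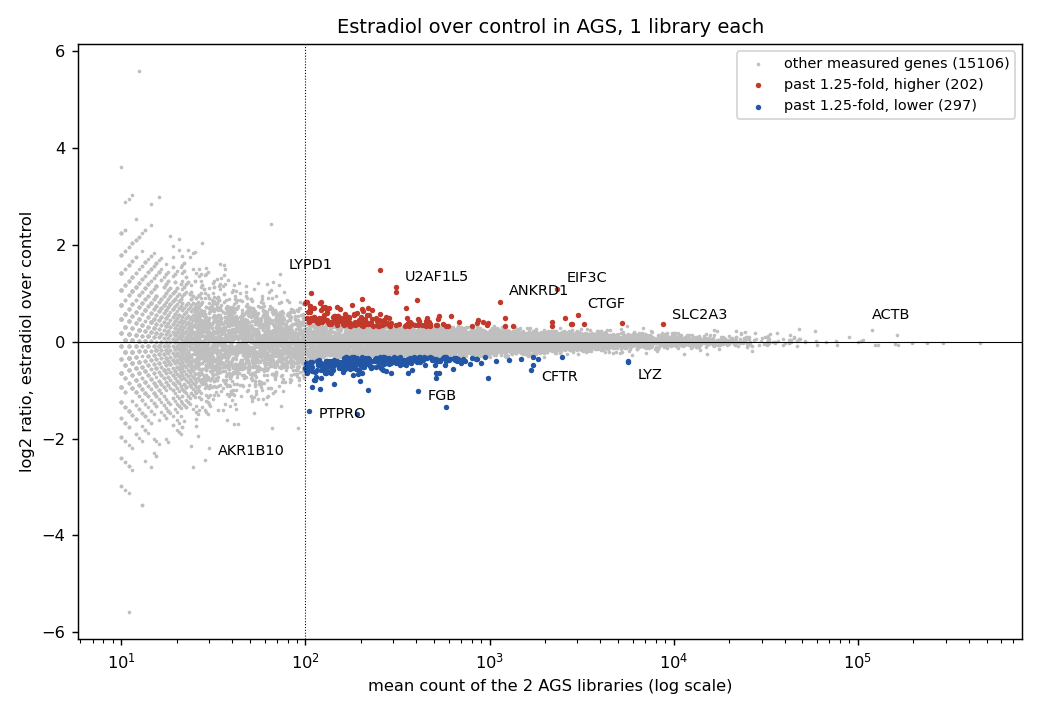
Each point is 1 of the 15605 genes, with its mean count over the 2 AGS libraries on a log axis and the log2 ratio of estradiol over control on the other. Red and blue mark the 202 genes higher and the 297 lower past the fold, all to the right of the dotted line at a mean count of 100, and the spread narrows as counts grow.

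The receptors of estradiol were scarce in AGS. ESR1, the classical nuclear receptor, had 4 and 5 counts, too few to compare. ESR2, the other nuclear receptor, gave 44 and 73 counts, a log2 ratio of 0.63 (0.08 to 1.22), so the estradiol library was higher by little more than counting error. GPER1, the membrane receptor, had 35 and 28 counts (log2 ratio -0.41, interval -1.18 to 0.35), within counting error. Of 9 measured receptors and coregulators, the interval lay above 0 for 2, ESR2 among them, and below 0 for 1, the coactivator NCOA1 (1752 and 1663 counts, log2 ratio -0.16, interval -0.26 to -0.07). None of the 9 was past the fold, and their median log2 ratio was -0.03 beside a median of -0.004 over all genes.

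The genes that estradiol induces in breast cancer cells did not move together in AGS. PGR, the progesterone receptor, had no count in either library, which at this depth allows up to 0.114 CPM in the control and 0.107 CPM in the estradiol library (3 counts). GREB1, a cofactor of ESR1, had 16 and 32 counts, with an interval of 0.003 to 1.88 whose lower bound lies just above 0. TFF1, a peptide of the gastric mucus, was lower in the estradiol library, at 593 and 506 counts (log2 ratio -0.32, interval -0.49 to -0.14), just short of the fold. Of 41 genes on a list of classical oestrogen-induced genes, 29 were measured, with 5 intervals above 0, 5 below and 0 past the fold, and the median log2 ratio was -0.01. The higher ones included the cell-cycle driver CCND1 (15270 and 18998 counts, log2 ratio 0.23, interval 0.20 to 0.26), the retinoic acid receptor RARA (462 and 578 counts, log2 ratio 0.23, interval 0.06 to 0.41) and the amino acid transporter SLC7A5 (11653 and 13584 counts, log2 ratio 0.13, interval 0.10 to 0.17). The lower ones, besides TFF1, were WISP2 with 22 and 7 counts, the lysosomal protease CTSD (log2 ratio -0.18, interval -0.26 to -0.09), the unfolded-protein factor XBP1 (log2 ratio -0.15, interval -0.21 to -0.08) and the epithelial factor ELF3 (log2 ratio -0.09, interval -0.14 to -0.04). The shares with an interval above and below 0 were close to those of all genes given above.

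Enzymes that make, convert or inactivate oestrogens were, where they differed at all, lower in the estradiol library. Of 18 measured genes of this list, 0 had an interval above 0, 5 had it below and 13 spanned 0. The median log2 ratio was -0.17, and -0.09 over the 12 with a mean count of 100 or more. CYP1A1, a cytochrome P450 that hydroxylates estradiol and aromatic hydrocarbons, had 433 and 292 counts, 1.58-fold lower (log2 ratio -0.66, interval -0.88 to -0.44), and was the only one past the fold. AKR1C3, which turns estrone into estradiol, had 21 and 5 counts (log2 ratio -2.06, interval -3.92 to -0.71). HSD17B14 and HSD17B4, which oxidise estradiol, had 23 and 11 and 4224 and 3972 counts (-1.12 and -0.18), and CYP3A5, another cytochrome P450, 769 and 693 counts (log2 ratio -0.24, interval -0.39 to -0.09). In HGC-27 CYP1A1 had 103 and 97 counts and a log2 ratio of 0.12 (-0.30 to 0.53).

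Targets of YAP and TEAD had the highest median log2 ratio of the 43 gene lists examined. YAP is a coactivator held in the cytoplasm by the Hippo kinases. When cells spread, are stretched or receive certain signals through membrane receptors, it enters the nucleus and switches on genes through the TEAD factors, which bind the letters CATTCC. CTGF and ANKRD1 are the standard reporters of this pathway. Their promoters are shown because their ratios were the highest of the list's members with 1000 or more counts on average. The CTGF window (CCN2 in RefSeq, chr6:131951374-131951622, minus strand, GRCh38.p14, RefSeq) stops before the first exon annotated in GENCODE 29, and capitals mark each CATTCC or its reverse complement GGAATG.

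CTGF: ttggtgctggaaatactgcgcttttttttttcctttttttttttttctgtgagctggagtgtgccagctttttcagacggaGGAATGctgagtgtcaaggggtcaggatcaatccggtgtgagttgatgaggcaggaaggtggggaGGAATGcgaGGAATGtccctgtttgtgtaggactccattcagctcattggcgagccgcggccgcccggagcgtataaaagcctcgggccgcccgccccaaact

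ANKRD1 had matches 220 and 128 bases before its RefSeq start (chr10:90921290-90921319 and chr10:90921198-90921227, minus strand). AMOTL2 had 1 at 69 bases (chr3:134374499-134374528, minus strand) and AXL 1 at 212 bases (chr19:41226531-41226560, plus strand). For a gene with more than 1 RefSeq start, the window with most matches is the one shown, which need not be at its main start. Stretches of 30 bases around these matches read as follows.
ANKRD1, at 220 bases: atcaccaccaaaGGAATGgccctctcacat
ANKRD1, at 128 bases: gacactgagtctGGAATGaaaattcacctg
AMOTL2: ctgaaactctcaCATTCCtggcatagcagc
AXL: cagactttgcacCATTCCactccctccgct

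In CTGF the matches began 169, 104 and 95 bases before the start. The letters occurred in the 250 bases upstream of 6 of the 12 measured members of the YAP and TEAD list that have a promoter in the RefSeq table (50%): CTGF, ANKRD1, AXL, AMOTL2, AJUBA and PTPN14. AMOTL1, F3, GADD45B, LATS2, MYOF and WWC1 had no match. The list was drawn up from known targets of YAP and TEAD. The letters occurred upstream of 14.3% of all 27305 genes in that table, and of 12.8% of the genes with a mean count of 100 or more. They occurred upstream of 10 of the 23 actin genes described further on (43.5%). Among all genes past the fold the share was 14.1% for those higher and 14.4% for those lower. FGB, one of the genes lower in the estradiol library, also had 1 match, 19 bases before its start. The full palindromic oestrogen response element, searched in the same windows on both strands, was present in 0.0513% of all promoters, in 0 of 128 for genes past the fold and higher, and in 0 of 208 for those lower. The hypoxia core ACGTG, searched in the same way, was also present in 6 of the 12 YAP and TEAD promoters, beside 21.7% of all promoters and 29.7% at a mean count of 100 or more. A match is a string of letters and not a measured binding site.

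Of 27 genes on the YAP and TEAD list, 20 were measured. The interval lay above 0 for 17 and below 0 for 1, the median log2 ratio was 0.21, and 5 were past the fold, all higher. ANKRD1, a muscle ankyrin-repeat protein, had 788 and 1478 counts, 1.76-fold higher in the estradiol library (log2 ratio 0.82, interval 0.69 to 0.94). CTGF, a secreted matrix-binding growth factor modulator, had 2363 and 3666 counts, 1.46-fold higher (log2 ratio 0.54, interval 0.47 to 0.62). GADD45B, a stress sensor, had 207 and 298 counts (log2 ratio 0.44, interval 0.18 to 0.70). CYR61, the secreted relative of CTGF, had 367 and 492 counts (log2 ratio 0.33, interval 0.14 to 0.53). F3, the tissue factor that starts blood clotting, had 1039 and 1383 counts (log2 ratio 0.32, interval 0.21 to 0.44). In all 5 the estradiol library was the higher, by up to 1.76-fold. AXL, a receptor tyrosine kinase whose mean count was under 100, had 45 and 93 counts (log2 ratio 0.95, interval 0.43 to 1.51).

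Most of the other members of the list were higher by less. AMOTL2, an angiomotin that restrains YAP and is itself a target, had 1579 and 1999 counts (log2 ratio 0.25, interval 0.16 to 0.35). CRIM1, a membrane regulator of growth factors, had 2485 and 3118 counts (log2 ratio 0.24, interval 0.16 to 0.31), and LATS2, the Hippo kinase that is also induced by YAP, had 723 and 881 counts (log2 ratio 0.20, interval 0.05 to 0.34). TEAD1 and TEAD4, the DNA-binding partners, had log2 ratios of 0.058 and 0.13. ARHGEF17, an activator of the GTPase RhoA, was the exception, with 623 and 542 counts (log2 ratio -0.29, interval -0.46 to -0.12). In HGC-27, 26 members were measured, 1 had an interval above 0 and 5 below, and the median was -0.02. The share of all HGC-27 genes with such intervals was not computed. The HGC-27 counts of this and later lists therefore have no base rate beside them. CTGF there had 389 and 325 counts (log2 ratio -0.06, interval -0.28 to 0.16) and AMOTL2 1859 and 1344 (log2 ratio -0.27, interval -0.37 to -0.16). The difference between the lines was not tested.

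Genes of the actin cytoskeleton, many of them targets of the factor SRF and its actin-sensing partner MRTF, were also higher in the estradiol library. Of 27 measured, 18 had an interval above 0, 1 had it below, and the median log2 ratio was 0.14. ACTB, cytoplasmic beta-actin, had 105419 and 133152 counts (log2 ratio 0.25, interval 0.24 to 0.26) and ACTG1, gamma-actin, 52338 and 64831 counts (log2 ratio 0.22, interval 0.20 to 0.24). For ACTB this was a step from 4002 to 4752 CPM. FLNA, which cross-links actin filaments, had 42082 and 53493 counts (log2 ratio 0.26, interval 0.24 to 0.28). MYH9, the heavy chain of non-muscle myosin, had 14707 and 18379 counts (log2 ratio 0.23, interval 0.20 to 0.26), and ZYX, a focal-adhesion protein, 3095 and 3902 counts (log2 ratio 0.25, interval 0.18 to 0.31). Only TAGLN, an actin-bundling protein of smooth muscle (1824 and 2557 counts, log2 ratio 0.40, interval 0.31 to 0.49), and MYL9, a myosin light chain (2362 and 3237 counts, log2 ratio 0.37, interval 0.29 to 0.44), passed the fold. LIMA1 was the member on the other side (log2 ratio -0.08, interval -0.14 to -0.02).

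In HGC-27 the same list had 1 interval above 0 and 13 below among 30 measured genes, with a median of -0.02. No share over all HGC-27 genes was computed to set beside these counts. ACTB there had a log2 ratio of -0.08 (-0.10 to -0.07), FLNA of -0.02 (-0.04 to -0.002) and MYL9 of -0.20 (-0.30 to -0.10), so these genes leaned to the other side in that line, by small amounts. The difference was not tested.

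Adhesion receptors and basement membrane genes went with the actin genes in part. Of 29 measured integrins, laminins and their anchoring proteins, 13 had an interval above 0 and 3 below, with a median of 0.06. PHLDB2, which anchors microtubules at adhesions, had 4368 and 6047 counts (log2 ratio 0.38, interval 0.32 to 0.44). ITGB6, the epithelial integrin subunit that activates TGF-beta, had 403 and 549 counts (log2 ratio 0.36, interval 0.17 to 0.55), while ITGB8, its relative, had 152 and 123 counts (log2 ratio -0.39, interval -0.75 to -0.04). The hemidesmosome linker PLEC (19403 and 24085 counts, log2 ratio 0.22, interval 0.20 to 0.25), the integrin ITGB4 (log2 ratio 0.18, interval 0.14 to 0.22) and the tensin TNS4 (21923 and 26845 counts, log2 ratio 0.20, interval 0.18 to 0.23) were higher by less than the fold. COL4A1 and COL4A2, the paired chains of basement membrane collagen, lie head to head on chromosome 13 (GRCh38, 110148963 to 110307149 and 110305812 to 110513027). They had 114 and 195 counts (log2 ratio 0.68, interval 0.34 to 1.03) and 128 and 202 counts (log2 ratio 0.57, interval 0.24 to 0.90).

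The list of mesenchymal genes, to which both collagens and TAGLN belong, had 8 intervals above 0 and 2 below among 26 measured, with a median of 0.08. Its defining markers were mixed: VIM had 54 and 53 counts, COL1A1 317 and 289, FN1 46 and 52, ZEB1 25 and 38 and CDH2 5 and 11, with SPARC and COL1A2 at 0 in both libraries. COL5A2 and LOX, a fibrillar collagen and the enzyme that cross-links collagen, had 24 and 11 and 40 and 25 counts. Among 37 measured junction and keratin genes, 7 intervals were above 0 and 9 below, with a median of -0.003 that changed sign with the scaling. KRT80, an epithelial keratin, had 2056 and 3062 counts (log2 ratio 0.49, interval 0.40 to 0.57) and was the only one on this list past the fold. The keratins KRT17, described further on, and KRT6A are outside the list and were also past the fold and higher. KRT6A had 307 and 432 counts (log2 ratio 0.40, interval 0.19 to 0.62), but 52.7% of its sequence is shared, so that it is uncertain. KRT18 and KRT8, the paired simple-epithelium keratins, were slightly higher (log2 ratio 0.16, interval 0.13 to 0.18 and log2 ratio 0.10, interval 0.09 to 0.12), and the tight-junction claudin CLDN7 slightly lower (log2 ratio -0.13, interval -0.20 to -0.06).

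**Figure D2:**
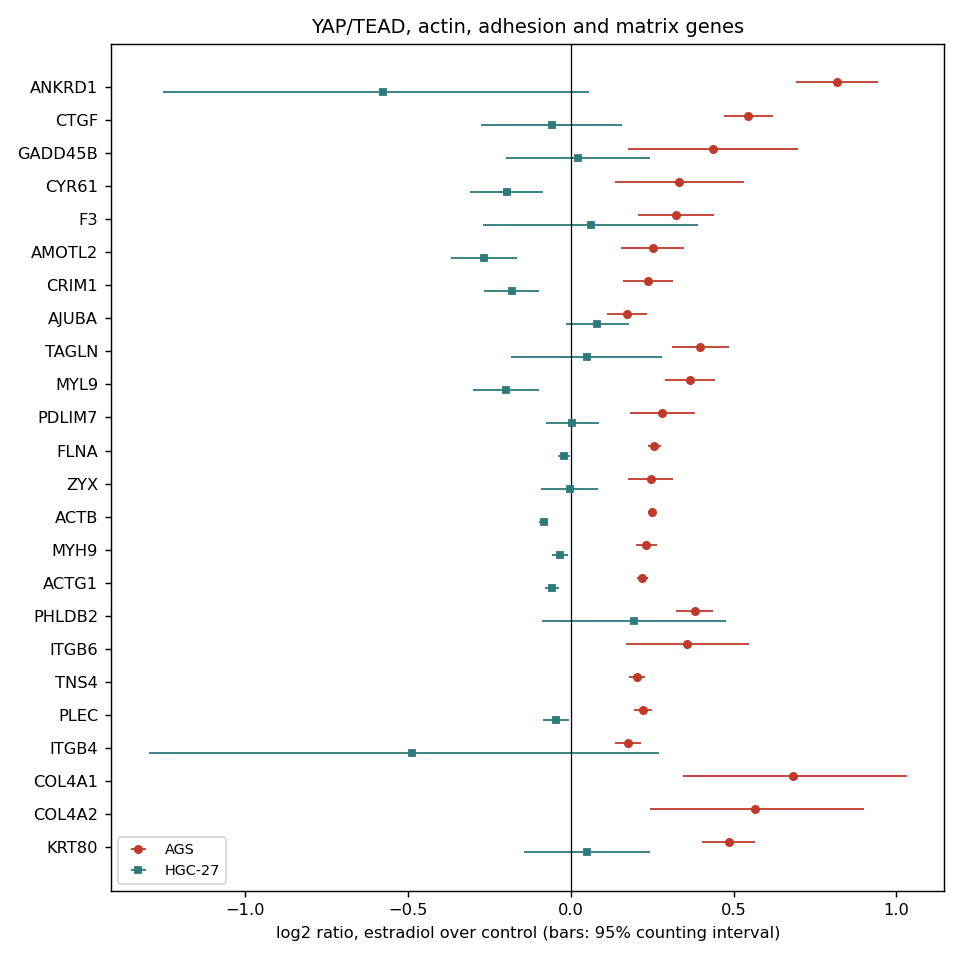
Log2 ratios of estradiol over control for YAP and TEAD targets, actin, adhesion and matrix genes, with bars for the 95% counting interval, in AGS (red circles) and, where the mean count was 30 or more, HGC-27 (teal squares). All 24 AGS values lie above 0, from 0.17 for AJUBA to 0.82 for ANKRD1, and the genes were picked as examples of the higher side.

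Of 29 measured early-response genes of growth factor signalling, 11 had an interval above 0, 0 had it below and 18 spanned 0. MAPK signalling switches on such genes within minutes and its feedback inhibitors later. The median was 0.08 and none passed the fold. The feedback phosphatase DUSP4 had 4793 and 6358 counts (log2 ratio 0.32, interval 0.26 to 0.37), the inhibitor SPRY4 643 and 842 counts (log2 ratio 0.30, interval 0.15 to 0.45), the stress factor ATF3 769 and 993 counts (log2 ratio 0.28, interval 0.14 to 0.42) and the AP-1 subunit JUN 2772 and 3514 counts (log2 ratio 0.25, interval 0.18 to 0.33). FOSB, another AP-1 subunit, had 75 and 118 counts. In HGC-27 the median of the list was 0.07, with 5 above and 1 below among 25. EGFR, the receptor of epidermal growth factor, was higher in AGS (3407 and 4040 counts, log2 ratio 0.16, interval 0.09 to 0.22), and its relative ERBB3 lower (4408 and 4051 counts, log2 ratio -0.21, interval -0.27 to -0.15).

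Genes of the inflammatory factor NF-kB leaned the same way, 7 of 19 with an interval above 0 and 0 below (median 0.09). CXCL2, a chemokine that draws neutrophils, had 32 and 79 counts (log2 ratio 1.201, interval 0.61 to 1.86), and CXCL8, another of that kind, 7 and 20 counts. BIRC3, an inhibitor of cell death, had 320 and 438 counts (log2 ratio 0.36, interval 0.15 to 0.58) and was past the fold. Interferon-stimulated genes leaned slightly to the lower side, with 1 above and 8 below of 33 and a median of -0.06. Over all AGS genes with a mean count of 100 or more, 14.2% were above and 15.6% below. USP18, which damps interferon signalling, had 428 and 360 counts (log2 ratio -0.34, interval -0.54 to -0.13), and ISG20, an exonuclease, 132 and 101 counts (log2 ratio -0.47, interval -0.86 to -0.09). Of 17 genes of antigen presentation by MHC class I, 7 were below 0 and 1, the regulator NLRC5, above (log2 ratio 0.24, interval 0.10 to 0.38). HLA-F, a non-classical class I gene, had 220 and 185 counts (log2 ratio -0.34, interval -0.63 to -0.05).

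Of 40 S phase genes 17 had an interval above 0, 2 had it below and 21 spanned 0 (median 0.06). Of 39 genes of G2 and mitosis 12 were above, 4 below and 23 spanned 0 (median 0.02). Replication-dependent histone genes are expressed in S phase. Of the 12 measured genes on their list, 0 were above 0 and 1 below, with a median of -0.04. The list leaves out HIST1H3G, a further gene of this class, which was higher (16 and 53 counts, log2 ratio 1.61, interval 0.81 to 2.55). GINS2, part of the replicative helicase, was the highest of the S phase genes (512 and 652 counts, log2 ratio 0.26, interval 0.09 to 0.43). MKI67, the proliferation antigen, had 30283 and 34753 counts (log2 ratio 0.11, interval 0.09 to 0.13), while PCNA, the replication clamp, had 10093 and 10277 counts (log2 ratio -0.06, interval -0.10 to -0.02). Of 41 factors that assemble ribosomes, 20 were above 0 and 1 below, with a median of 0.06, and RRP9 was the highest at 0.26 (0.12 to 0.40). In HGC-27 the medians of the S phase, G2 and mitosis, and ribosome assembly lists were -0.05, -0.05 and -0.14, with 0 of 41 ribosome factors above 0 and 33 below. These HGC-27 counts have no share over all genes of that line beside them. Ribosomal proteins themselves had 16 intervals above 0 and 22 below of 78 in AGS, and their median of -0.01 changed sign with the scaling.

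The lower side held secreted and lineage genes of the gut and liver type. The 3 fibrinogen genes, whose products form the clot protein and are normally made by the liver, lie side by side on chromosome 4 (GRCh38, 154562956 to 154612967). FGB, the beta chain, had 538 and 284 counts, 2.01-fold lower in the estradiol library (log2 ratio -1.01, interval -1.22 to -0.80). FGA, the alpha chain, had 146 and 105 counts (log2 ratio -0.56, interval -0.94 to -0.19) and FGG, the gamma chain, 167 and 128 counts (log2 ratio -0.47, interval -0.82 to -0.13). Clotting factor F10 had 55 and 23 counts (log2 ratio -1.33, interval -2.12 to -0.62) and F5 1409 and 1298 counts (log2 ratio -0.21, interval -0.32 to -0.10). Of 15 measured genes for secreted plasma proteins, 0 had an interval above 0 and 5 below, 3 passed the fold and the median was -0.21. FGB, FGA and FGG had at most 1 count in the HGC-27 libraries.

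Genes that mark intestinal cells had 10 intervals below 0 and 2 above among 17 measured, 5 past the fold and a median of -0.15. CFTR, the chloride channel of secretory epithelia, had 1939 and 1484 counts (log2 ratio -0.47, interval -0.57 to -0.38). NR5A2, a nuclear receptor of gut and liver, had 226 and 172 counts (log2 ratio -0.48, interval -0.78 to -0.19). LYPD6B, a membrane-anchored modulator of acetylcholine receptors, had 372 and 284 counts (log2 ratio -0.48, interval -0.71 to -0.25), the tetraspanin TSPAN1 321 and 248 counts (log2 ratio -0.46, interval -0.71 to -0.22) and the lectin LGALS4 742 and 612 counts (log2 ratio -0.37, interval -0.52 to -0.21). The master regulators were only a little lower, HNF4A at -0.15 (-0.23 to -0.08) and CDX2 at -0.13 (-0.21 to -0.05). VIL1, which bundles actin in microvilli, was on the higher side (log2 ratio 0.13, interval 0.08 to 0.17). In bulk RNA, fewer cells of a kind and less RNA per cell cannot be told apart.

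Gastric identity genes had 6 intervals below 0 and 2 above of 18, with a median of -0.06. LYZ, the antibacterial enzyme lysozyme, had 6329 and 5004 counts (log2 ratio -0.43, interval -0.48 to -0.37). LYZ is also on the list of leukocyte markers, whose defining member PTPRC had 3 counts in the control and 0 in the estradiol library. FOXA2 and FOXA3, forkhead factors of gut and liver, had 170 and 134 counts (log2 ratio -0.43, interval -0.77 to -0.10) and 1027 and 929 counts (log2 ratio -0.23, interval -0.36 to -0.10). CTSE, a gastric protease, differed little (25666 and 26439 counts, log2 ratio -0.05, interval -0.07 to -0.02). FOXQ1, another forkhead factor, was higher (6892 and 8409 counts, log2 ratio 0.20, interval 0.15 to 0.24).

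Genes of detoxification were lower in part. Of 9 targets of the aryl hydrocarbon receptor, 4 had an interval below 0 and 1 above. Beside CYP1A1 these were NQO1, a quinone reductase (8381 and 7831 counts, log2 ratio -0.19, interval -0.23 to -0.14), ALDH3A1, an aldehyde dehydrogenase (log2 ratio -0.18, interval -0.27 to -0.08), and UGT1A6, a glucuronidation enzyme that shares exons with its neighbours (70 and 33 counts). Of 28 genes controlled by the antioxidant factor NRF2, 11 were below 0 and 1 above, with a median of -0.07. In HGC-27 10 of 28 were below 0 and 2 above, with a median of -0.06. AKR1B10, an aldo-keto reductase, had 49 and 11 counts (log2 ratio -2.19, interval -3.34 to -1.28). ABCC2, an export pump, had 14 and 39 counts and was the one above 0. Its direction differed from AKR1B10, and both rest on few counts.

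Cholesterol synthesis genes lay on the lower side. The factor SREBP2 switches on these enzymes when membranes run short of cholesterol. Of 25 measured, 0 had an interval above 0 and 12 below, and the median was -0.10. HMGCS1, which makes the precursor HMG-CoA, had 2657 and 2260 counts (log2 ratio -0.32, interval -0.40 to -0.24) and was the one past the fold. MSMO1, a sterol demethylase, had 1756 and 1548 counts (log2 ratio -0.27, interval -0.37 to -0.17), and INSIG1, the sterol sensor's anchor, 1296 and 1145 counts (log2 ratio -0.27, interval -0.38 to -0.15). In HGC-27 7 of 25 were above 0 and 1 below, with a median of 0.03, and INSIG1 there was 0.23 (0.19 to 0.28). ACSS2, which makes acetyl-CoA from acetate, had 1402 and 1147 counts in AGS (log2 ratio -0.38, interval -0.49 to -0.27) against 0.41 (0.31 to 0.52) in HGC-27. FASN and ACACA, the main enzymes of fatty acid synthesis, were slightly higher in AGS (log2 ratio 0.07, interval 0.03 to 0.11 and log2 ratio 0.08, interval 0.02 to 0.13). The difference between the lines was not tested.

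Proteins of the secretory pathway and the lysosome also leaned low. Of 24 chaperones of the endoplasmic reticulum, 13 had an interval below 0 and 0 above, with a median of -0.06 and none past the fold, and in HGC-27 5 were below and 4 above. PDIA4, a disulphide isomerase, had 17927 and 17205 counts (log2 ratio -0.15, interval -0.18 to -0.12), and HSPA5, the main luminal chaperone, 46655 and 46805 counts (log2 ratio -0.08, interval -0.10 to -0.07). Of 36 autophagy and lysosome genes, 16 were below 0 and 1 above (median -0.09), and in HGC-27 3 were below and 5 above. NAAA, which hydrolyses fatty acid amides in lysosomes, had 325 and 226 counts (log2 ratio -0.61, interval -0.86 to -0.36), and WIPI1, which helps form autophagosomes, 205 and 150 counts (log2 ratio -0.54, interval -0.85 to -0.23). GLA, a lysosomal galactosidase, had 1155 and 1018 counts (log2 ratio -0.27, interval -0.39 to -0.15), and SQSTM1, an autophagy receptor, 8072 and 7760 counts (log2 ratio -0.15, interval -0.19 to -0.10). SLC40A1, the only known iron exporter of cells, had 646 and 494 counts (log2 ratio -0.48, interval -0.65 to -0.30), against 0.23 (0.07 to 0.39) in HGC-27. Of 22 genes of iron handling, 7 were below 0 and 2 above.

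**Figure D3:**
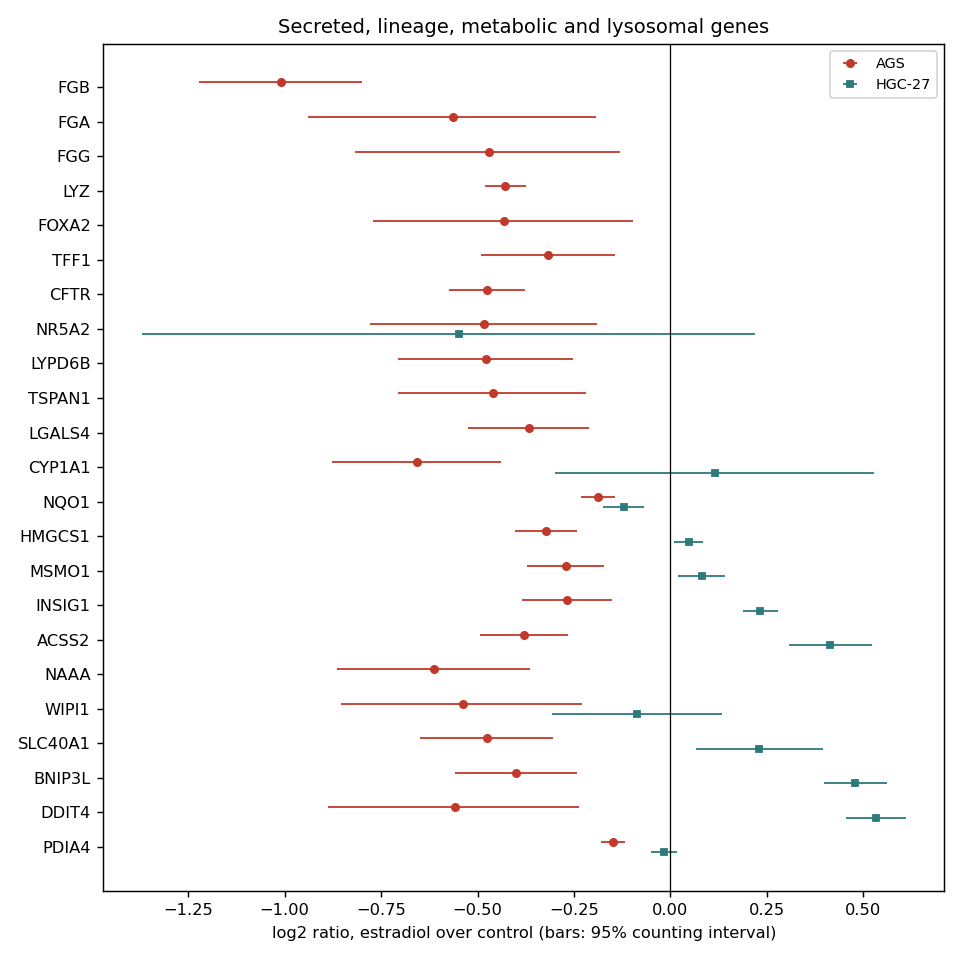
Log2 ratios of estradiol over control for secreted, lineage, detoxification, lipid and lysosomal genes, with bars for the 95% counting interval, in AGS (red circles) and, where the mean count was 30 or more, HGC-27 (teal squares). All 23 AGS values lie below 0, from -1.01 for FGB to -0.15 for PDIA4, and the genes were picked as examples of the lower side. In HGC-27, DDIT4, BNIP3L and ACSS2 lie above 0.

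Genes of the respiratory chain showed a slight and uneven lean. Of 75 nuclear genes, 17 had an interval below 0 and 5 above (median -0.03). The shares over all AGS genes with a mean count of 100 or more were 15.6% below and 14.2% above. The 3 past the fold were ATP5PO, a subunit of ATP synthase (451 and 358 counts, log2 ratio -0.42, interval -0.63 to -0.22), COX6A1, of cytochrome oxidase (598 and 482 counts, log2 ratio -0.40, interval -0.58 to -0.22), and NDUFB6, of complex I (637 and 516 counts, log2 ratio -0.39, interval -0.56 to -0.22). In HGC-27 26 of the 75 were below 0 and 2 above, with a median of -0.06, and the shares over all HGC-27 genes were not computed. Of 15 protein and ribosomal RNA genes of the mitochondrial genome, 4 were above 0 and 8 below, all by less than 1.11-fold. MT-ND5 had 151326 and 176574 counts (log2 ratio 0.13, interval 0.12 to 0.14), and MT-ND6, its neighbour on the other strand, 39524 and 46210 counts (log2 ratio 0.14, interval 0.12 to 0.16). MT-CO1 had 449846 and 466036 counts (log2 ratio -0.04, interval -0.04 to -0.03) and MT-ND4 285151 and 297471 counts (log2 ratio -0.03, interval -0.04 to -0.02). MT-CO2, MT-ATP6 and MT-ND2 had log2 ratios of -0.07 each (164774 and 167323 counts, 123461 and 124998 counts and 127438 and 129384 counts). MT-CO1, MT-CO2, MT-ATP6 and MT-ND2 share 50% or more of their sequence with other genes, so their counts are uncertain. Of the 7 other mitochondrial genes measured, all for transfer RNAs, MT-TH (108 and 189 counts, log2 ratio 0.72, interval 0.37 to 1.07) and MT-TY (404 and 339 counts, log2 ratio -0.34, interval -0.55 to -0.13) were past the fold.

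Glycolysis and low-oxygen genes did not move together in AGS. Of 34 measured, 7 had an interval above 0 and 9 below, and the median of -0.001 changed sign with the scaling. SLC2A3, a glucose transporter, had 7361 and 10063 counts (log2 ratio 0.36, interval 0.32 to 0.41). ALDOA, a glycolytic enzyme, had 472 and 649 counts (log2 ratio 0.37, interval 0.20 to 0.54). Of its sequence 59.1% is shared, so that it is uncertain. The closest copy is a second entry of ALDOA, with 21 and 52 counts, and the sum had a ratio of 0.42 (0.25 to 0.59). On the lower side were DDIT4, a stress inhibitor of the kinase mTOR (190 and 137 counts, log2 ratio -0.56, interval -0.89 to -0.24), and BNIP3L, a receptor for the removal of mitochondria (734 and 592 counts, log2 ratio -0.40, interval -0.56 to -0.24). ALDOC, a brain-type aldolase, had 102 and 63 counts. In HGC-27 33 of 39 of these genes had an interval above 0 and 2 below, with a median of 0.23, and DDIT4 and BNIP3L there were 0.53 (0.46 to 0.61) and 0.48 (0.40 to 0.56). The share over all HGC-27 genes, beside which such counts would be read, was not computed. The difference was not tested. Targets of the amino acid stress factor ATF4 had 4 above and 7 below of 30 in AGS, with a median of -0.02.

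**Figure D4:**
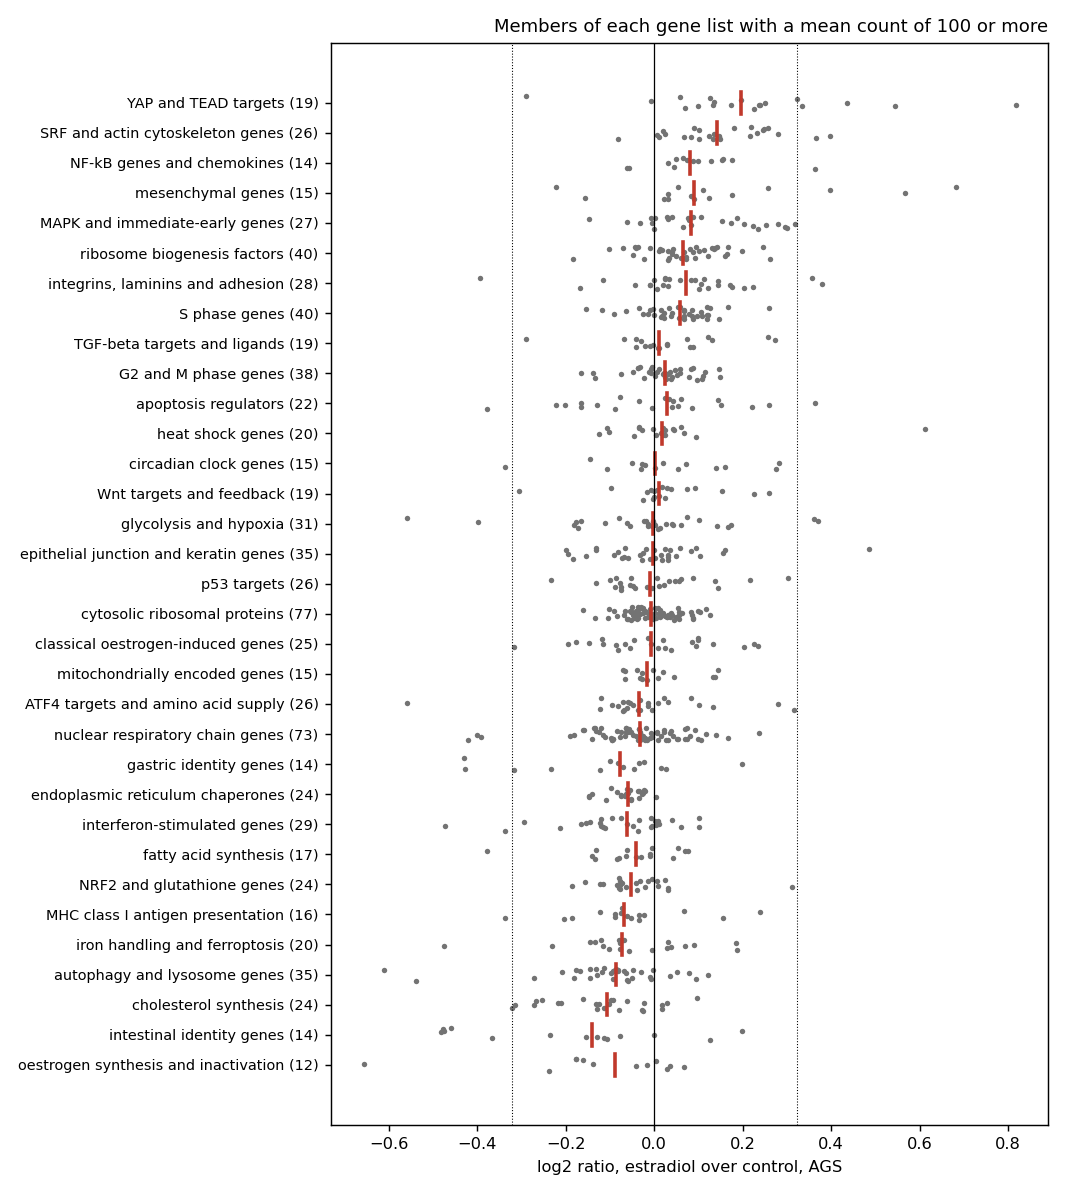
Log2 ratios in AGS of the members of each list with a mean count of 100 or more, for the lists with 12 or more such members (number in brackets). Each point is a gene, red bars are medians and dotted lines mark the fold of 0.322 on the log2 scale. The medians run from 0.20 for YAP and TEAD targets to -0.14 for intestinal identity genes, and the list of classical oestrogen-induced genes sits at -0.01.

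Several genes with high counts and past the fold were on none of the lists. Of the 24 with a mean count of 1000 or more, 14 were higher and 10 lower. HEG1, a mucin-like receptor of cell junctions, had 970 and 1443 counts (log2 ratio 0.48, interval 0.37 to 0.60), the teneurin TENM3 2746 and 3764 counts (log2 ratio 0.37, interval 0.29 to 0.44), the membrane protein MYADM 2335 and 3182 counts (log2 ratio 0.36, interval 0.28 to 0.44), the cytokine-signal inhibitor SOCS2 1860 and 2485 counts (log2 ratio 0.33, interval 0.24 to 0.42) and the keratin KRT17 1149 and 1532 counts (log2 ratio 0.33, interval 0.21 to 0.44). On the lower side, IDH1, the cytosolic isocitrate dehydrogenase, had 6215 and 5024 counts (log2 ratio -0.40, interval -0.45 to -0.34), PAQR8, a membrane progesterone receptor, 1196 and 959 counts (log2 ratio -0.41, interval -0.53 to -0.28), the ubiquitin ligase TRIM2 2004 and 1660 counts (log2 ratio -0.36, interval -0.46 to -0.27) and the secreted lectin REG1A 1874 and 1588 counts (log2 ratio -0.33, interval -0.43 to -0.23). These 9 genes were chosen after their values were seen, for their counts.

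The largest ratios were in genes of few counts. Among protein-coding and long noncoding genes with a mean count of 30 or more, ranked by the interval bound nearest 0, the higher end held LYPD1, a membrane-anchored receptor modulator (38 and 107 counts, log2 ratio 1.39, interval 0.86 to 1.98), CNIH3, which escorts glutamate receptors (18 and 55 counts), the histone HIST1H3G (16 and 53 counts), the zinc finger genes ZNF442 and ZNF546 (36 and 88 and 40 and 90 counts) and PRODH, proline dehydrogenase (19 and 51 counts). PTPRO, a receptor tyrosine phosphatase, had 151 and 59 counts and was 2.71-fold lower (log2 ratio -1.44, interval -1.90 to -1.002). NLRP7, an inflammasome-family gene, had 62 and 20 counts (log2 ratio -1.70, interval -2.53 to -0.97), and MLXIPL, the glucose-sensing factor ChREBP, 51 and 20 counts (log2 ratio -1.42, interval -2.26 to -0.67). That rank also held RNF224, APLP1, AC004233.2 and AL354892.3 on the higher side, and ZNF233, AC024060.1, AC004812.2 and PCAT1 on the lower. The last 3 are annotated as antisense RNAs, and no source used here says whether counting used strand, so their reads cannot be told apart from those of the opposite gene.

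Several of the extreme genes have near-identical copies, and reads that fit more than 1 copy can be assigned to either. Among genes with 50% or more of their sequence in another gene, 67 of 441 (15.2%) were past the fold, beside 431 of 10471 (4.12%) of the others. The 2 groups also differ in counting error, with a median half-width of the interval of 0.226 and 0.119. Genes of few counts pass the fold more often, and the shares were not matched for counts. A set of 49 such genes had a closest copy that was also measured. For 27 of these 49 genes the copy's ratio had the opposite sign, for 12 of them with an interval clear of 0. The share of opposite signs among unrelated pairs of genes was not computed. For 35 the summed pair was short of the fold or its interval included 0, and for 14 the sum was still past it. Where the copy had many more counts than the gene, the sum mostly follows the copy, so this outcome was partly fixed in advance. Whether reads were exchanged between copies was not tested. A pair with both members among the 49 is counted once for each member. EIF3C, a subunit of translation initiation factor 3, had the highest ratio of the genes with a mean count of 1000 or more (1432 and 3237 counts, log2 ratio 1.09, interval 0.997 to 1.18). Its copy EIF3CL had 146 and 235 counts, and the sum stayed higher, at 1.05 (0.96 to 1.14). In HGC-27 EIF3C had 3685 and 3746 counts (log2 ratio 0.22, interval 0.16 to 0.29).

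The splicing factor U2AF1 and its copy U2AF1L5 went opposite ways: 248 and 149 counts for U2AF1 against 195 and 422 counts for U2AF1L5, and the sum had a ratio of 0.28 (0.10 to 0.46). The pseudogenes SMG1P5 and SMG1P2 were split likewise, with a sum at 0.22 (0.04 to 0.40). GPR89A and GPR89B, near-identical genes for an ion channel of the Golgi, were both lower (610 and 416 counts and 629 and 397 counts), so that their sum was too, at -0.70 (-0.83 to -0.57). THOC3, of an mRNA export complex, had 1965 and 1385 counts (log2 ratio -0.59, interval -0.69 to -0.49), and with its copy AC106795.1 a ratio of -0.38 (-0.46 to -0.29). CKMT1B, a mitochondrial creatine kinase, gave -0.37 (-0.51 to -0.23) with CKMT1A, and the pseudogene GTF2IP1 -0.77 (-0.91 to -0.64) with GTF2IP4. Of 2 further pseudogenes, FAM3C2 had 128 and 378 counts and NSFP1 275 and 104 counts. Their copies FAM3C and NSF had many more, 1961 and 1835 counts and 1954 and 2042 counts. The sums were -0.01 (-0.09 to 0.08) and -0.14 (-0.23 to -0.06). The heat-shock gene HSPA1A had 100 and 163 counts, while its copy HSPA1B had 2425 and 2625 counts and the sum a ratio of 0.05 (-0.02 to 0.13). RGPD6, SERF1B, AC126755.2, GGT1 and ORAI3, all among the lowest genes by rank, also share 50% or more of their sequence and are uncertain. Summed with their closest copies the first 3 were still lower, at -1.15 (-1.64 to -0.68), -1.31 (-2.02 to -0.67) and -1.25 (-1.66 to -0.87). The closest copies of GGT1 and ORAI3 had 0 counts in both libraries, so the sums equal their own ratios, at -1.62 (-2.48 to -0.88) and -1.32 (-1.87 to -0.81). For GGT1 that copy holds 39.8% of the sequence, of 57.5% shared, and the other copies were not summed. As the treatment of reads with several matches is not known, both ratios remain uncertain.

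**Figure D5:**
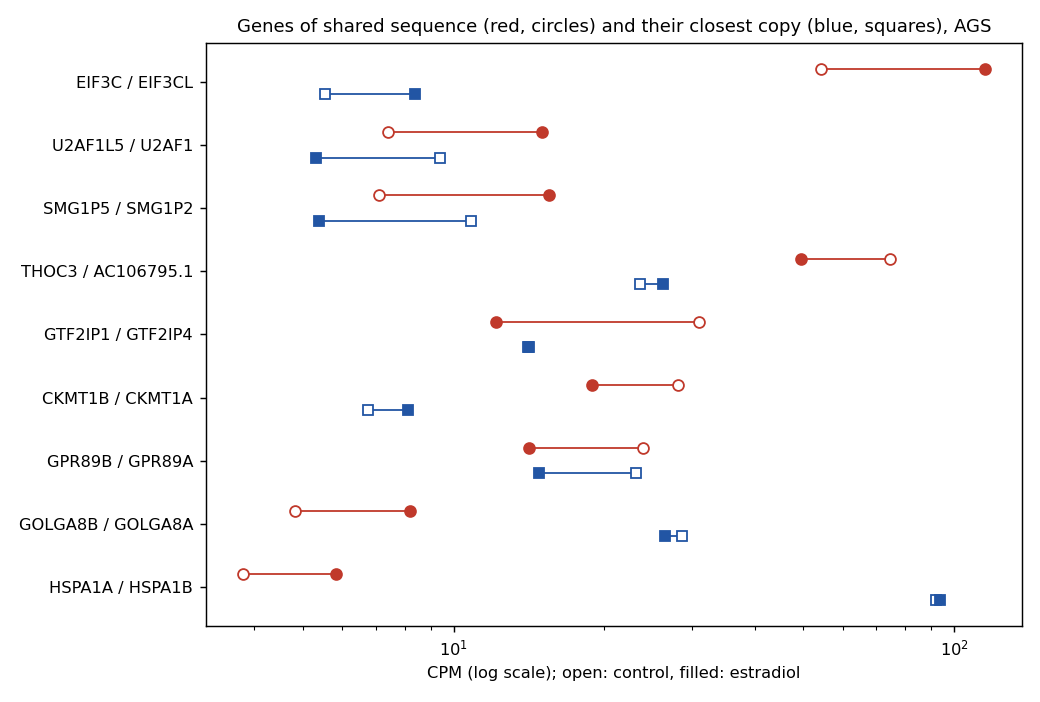
CPM on a log axis for 9 genes of shared sequence (red circles) and the closest copy of each (blue squares), in the AGS control (open) and estradiol (filled) libraries. U2AF1L5 and U2AF1, and SMG1P5 and SMG1P2, move in opposite directions, while both members of the EIF3C and GPR89 pairs move the same way.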

How the data were processed

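Total RNA was extracted with TRIzol and sequenced, per the labels' protocols, from 4 libraries: AGS and HGC-27, each untreated and after 10 nM estradiol for 1 day. The values are the authors' deposited gene counts, whole numbers with no normalization. The submitters' processing notes name HISAT2, featureCounts and the build hg18. Versions, strand setting and the treatment of reads with several matches are not given in the sources used here. Gene coordinates were as deposited, and for 57475 of the 58216 gene IDs found in GENCODE 29 they equal GRCh38, not hg18. Such choices bear most on genes with near-identical copies.

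Genes with a mean count of 10 or more over both AGS libraries were kept. Libraries were scaled by edgeR's TMM (4.0.16, R 4.3.3). A log2 ratio is log2 of (count + 0.5) over the scaled library size, estradiol minus control, with an exact conditional binomial (Clopper-Pearson) 95% interval (scipy 1.17.1) that covers counting error only, as reads are not independent molecules. No replicate exists, so no p-value was computed and counts of genes 25% or more apart at a mean count of 100 or more stand in for tests. The labels name no separate cultures. Shared sequence is the share of 31-base stretches of a gene's longest GENCODE 29 transcript that also occur in another gene's transcripts, with 50% or more called uncertain. Promoters are the 250 bases before the RefSeq start (GRCh38.p14), searched on both strands, and 10720 of the 15605 genes matched that table. Where a gene had more than 1 start there, a match in any of its windows counted. The window with most TEAD matches was the one shown. The script was tested on simulated data.

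The genes named are those, with a mean count of 30 or more and coding or long noncoding, that ranked in the 15 highest or lowest by the interval bound nearest 0 or in the 6 largest differences in CPM each way, in each list up to 4 members past the fold, and in any case TFF1, GREB1, PGR and the receptors GPER1, ESR1 and ESR2. Other members of the lists are examples chosen after their values were seen. Some genes that the rule or the lists hold are not reported here. The comparison, the 43 gene lists and the rule were chosen with earlier results of these data known. Alternatives were total, upper-quartile, DESeq2 (1.42.0) and mitochondria-free scaling, other count minimums, folds, priors and interval levels, and leaving out shared or noncoding genes.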

Additional observations from a re-analysis of the deposited data

Results flagged for a closer look

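Of the 87 named genes, 16 had log2 ratios of opposite sign in the 2 lines, with both counting intervals clear of 0. The named genes were chosen mainly by their AGS values, and the same count over all genes was not made. At high counts very small ratios also clear 0. With 1 library a side the difference between the lines was not tested. Values are given for AGS first and HGC-27 second, estradiol over control.

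Of the actin genes, ACTB had 0.25 and -0.08, ACTG1 0.22 and -0.06, FLNA 0.26 and -0.02, and MYL9 0.37 and -0.20. The YAP target CYR61 had 0.33 and -0.20. Among genes of metabolism and stress, HMGCS1 had -0.32 and 0.05, ACSS2 -0.38 and 0.41, DDIT4 -0.56 and 0.53, BNIP3L -0.40 and 0.48, and SLC40A1 -0.48 and 0.23. The circadian and cytokine-response factor NFIL3 had 239 and 201 counts in AGS, with -0.34 and 0.18. ISG20 had -0.47 and 1.45, the latter from 9 and 22 counts. Of very abundant transcripts, MT-ND5 had 0.13 and -0.06, MT-CO1 -0.038 and 0.01, MT-ND4 -0.028 and 0.02, and the translation factor EEF1A1 -0.054 and 0.03.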

How the results depend on the processing

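No paired analysis was possible because each group holds 1 library, so that estradiol in AGS has a single pair, and for the same reason no replicate could be left out. A fit over both lines with the line as a block would estimate a response common to them, which is another quantity, and was not run. The number of AGS genes past the fold, 202 higher and 297 lower, depends on the count minimum and the fold. It was 612 and 729 at a mean count of 10 or more, 385 and 493 at 30 or more, and 57 and 97 at 300 or more. At a fold of 1.5 it was 36 and 41, and at a fold of 2 it was 5 and 5. Under total counts it was 194 and 306, under DESeq2 size factors 212 and 271, and with a 99% counting interval 146 and 233. Without genes of shared sequence 163 and 269 were counted. Medians of the 40 lists with 5 or more measured members were also taken under the other scalings, with a prior count of 2 and over members with a mean count of 100 or more. None of these 240 values moved by more than the median counting interval to either side of the list's members. With 2 libraries, another scaling shifts every ratio by the same amount. Relative to total counts, the log2 scale was -0.004 under TMM and -0.013 under DESeq2 size factors. Such shifts are small beside most counting intervals, so for the scalings this outcome was largely fixed in advance. The median of the list of oestrogen synthesis and inactivation went from -0.17 to -0.09 with the last of these. The medians of the lists of classical oestrogen-induced genes, glycolysis and hypoxia, metallothioneins, ribosomal proteins, p53 targets and epithelial junctions changed sign with the scaling, all being close to 0. Of 425 ratios of named genes, 2 moved, both under DESeq2 size factors: MT-CO1 to -0.029 and MT-ND4 to -0.019, and none changed sign. Depth limits the scarce genes: ESR1, CXCL8 and the other genes of few counts have intervals wider than the ratios of most genes.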

Other observations

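Genes past the fold were unevenly spread over the genome. On chromosome 4, 22 of 388 genes with a mean count of 100 or more were past the fold on the lower side (5.67%, beside 2.72% over all such genes) and 3 on the higher side (0.773%). Beside the 3 fibrinogen genes, NAAA and TRIM2, the lower ones included TLR3, a sensor of double-stranded RNA (309 and 218 counts, log2 ratio -0.59, interval -0.85 to -0.34), IRF2, an interferon regulator (577 and 440 counts, log2 ratio -0.48, interval -0.66 to -0.30), ODAM (127 and 89 counts, log2 ratio -0.60, interval -1.01 to -0.20) and PPARGC1A, a coactivator of mitochondrial genes (121 and 96 counts, log2 ratio -0.42, interval -0.82 to -0.02). TENM3 was one of the 3 higher. The chromosome was chosen after its values were seen, and no test was made.

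By gene type, 27 of 351 long noncoding genes with a mean count of 100 or more were past the fold and higher and 15 lower, and 19 and 19 of 290 pseudogenes (13.1%). Of 10240 protein-coding genes 153 were higher and 261 lower (4.04%). The median half-width of the counting interval was 0.294 for long noncoding genes, 0.260 for pseudogenes and 0.117 for protein-coding genes. The shares by gene type were not matched for counts. The share past the fold was 7.97% in the shortest of 5 equal groups by exonic length and 2.61% in the longest, and 17.2% in the lowest of 5 groups by count against 0.275% in the highest.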
